A study of Mus musculus with 62 samples.

Results

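Of 5 genes of the myostatin axis read in these libraries, Mstn and Mss51 differed most between muscles. Both were abundant in gastrocnemius (GC), a mainly fast-twitch muscle, and at most 2.42 FPKM (fragments per kilobase of gene, scaled to the size of the library) in soleus (SOL), a slow-twitch muscle, while Fst and Smad7 were higher in SOL. Loss of ChREBP in muscle moved none of the genes past the adjusted p. Mstn was higher on a high-fructose diet in ChMKO mice, where 64% of all genes tested passed and 19.4% passed as higher. This rise of Mstn was not shown to differ between genotypes. Mss51 and Smad7 were slightly higher in C2C12 cells that overexpressed ChREBP, where 30.5% of all genes tested passed and 16.3% passed as higher. Mss51 no longer passed there when certain single libraries were left out.

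The genes described are 5, named by symbol: Mstn, Fst, Acvr2b, Smad7 and Mss51. Each was found once in every table, among 29239 symbols for mice on chow, 21936 for the hypoxia and diet experiments, 20956 for the AAV experiment and 17898 for C2C12 cells. They were chosen by their FPKM in SOL against GC of these same libraries, so the values of that comparison are a description and carry no test for these 5 genes.

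Myostatin, the product of Mstn, is a ligand of the TGF-β family that skeletal muscle secretes and that restrains muscle growth. It acts through activin type II receptors, among them the product of Acvr2b, and through SMAD2 and SMAD3 with SMAD4. Follistatin, the product of Fst, binds the ligand outside the cell and blocks it, and SMAD7 is an inhibitory SMAD that acts on the activated receptors and is itself induced by TGF-β family signals. Mss51 encodes a mitochondrial protein of fast glycolytic fibers, and its transcript is known to fall when myostatin signaling is blocked.

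To see where these genes start, the 250 bases before the start of Mstn and of Mss51, the pair with the widest gap between the muscles, are shown from RefSeq (GRCm38.p6), 5′ to 3′ on the strand of each gene. Capitals mark the letters GTCTAGAC, a palindrome that SMAD proteins can bind, and CAGAC or its reverse complement GTCTG, a shorter SMAD box. The Mstn window is chr1:53061390-53061639 on the plus strand and the Mss51 window chr14:20496902-20497151 on the minus strand.
Mstn: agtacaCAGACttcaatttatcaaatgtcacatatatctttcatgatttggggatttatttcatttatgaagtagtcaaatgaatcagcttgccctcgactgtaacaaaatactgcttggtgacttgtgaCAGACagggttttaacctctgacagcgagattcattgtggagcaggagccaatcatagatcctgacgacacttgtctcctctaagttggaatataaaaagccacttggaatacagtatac
Mss51: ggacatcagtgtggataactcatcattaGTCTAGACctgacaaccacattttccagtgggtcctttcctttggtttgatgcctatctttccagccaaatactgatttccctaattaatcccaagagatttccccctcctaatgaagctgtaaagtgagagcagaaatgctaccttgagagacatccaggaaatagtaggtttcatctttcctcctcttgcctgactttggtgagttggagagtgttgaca

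Read on both strands, GTCTAGAC was found once in the Mss51 window, 222 bases before the start, and in 47 of 27025 promoter windows of that length (0.174%). CAGAC was found 2 times in the Mstn window, 244 and 120 bases before the start, 0 times in that of Mss51, and in 42.1% of all windows. The E-box letters CANNTG, which bHLH factors such as MyoD and ChREBP can bind, occurred 4 times in the Mstn window, 0 times in that of Mss51, and in 66% of all windows. The stricter form CACGTG was in neither and in 6.05% of all windows. A match of letters is a description and not a bound site, and no binding was measured here. No window was available for Fst and Smad7. The window of Acvr2b, chr9:119401928-119402177 on the plus strand, lies within the span of that gene given below. It held the SMAD box once, as GTCTG, and GTCTAGAC and CANNTG 0 times, with a GC content of 72.8%. For Mstn it was 38.4% and for Mss51 43.2%.

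The libraries came from male mice and from the C2C12 mouse myoblast line, 62 in 14 groups. In the first experiment GC and SOL were taken from 5 F/F mice and 5 ChMKO mice on chow at 8 to 10 weeks of age. F/F mice carry floxed alleles of Mlxipl, the gene of ChREBP, with exon 8 between loxP sites, and ChMKO mice carry the same alleles with Mck-Cre, which is driven by the muscle creatine kinase promoter and so acts in muscle fibers and heart but not in the other cells of the tissue. The hypoxia and diet experiment took GC from both genotypes in normoxia (Norm), after hypoxia at a simulated 5500 m for 2 weeks (Hypo) or after 3 months on a diet with 68% of calories from fructose (HFrD), with 4 mice per group. The 8 Norm libraries serve as controls for both hypoxia and diet, and whether Norm and HFrD mice were of the same age at sampling is not given in the sources used here. For the AAV experiment, GC of C57BL6/J mice 8 to 10 weeks old was injected with AAV9 in which the CMV promoter, active in many cell types, drove ChREBP (AAV-ChREBP, labelled MLXIPL) or green fluorescent protein (AAV-CON), and taken 14 days later, with 5 libraries per group. C2C12 lines made by retroviral transduction and puromycin selection, with ChREBP (Ch-OE) or the control virus (CON), were sampled on day 7 of differentiation, with 4 libraries per group. Libraries of 1 line share its transduction, so p-values there measure the spread between libraries of that line.

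Mlxipl checked the labels. In GC it was at most 18.5 FPKM in ChMKO and at least 20.4 FPKM in F/F mice on chow, and at most 4.49 against at least 7.76 FPKM in the hypoxia and diet libraries, while in SOL the ranges met (30.0 to 46.1 FPKM in ChMKO, 43.8 to 64.1 FPKM in F/F). It was 10.4 to 12.3 FPKM in AAV-CON and 52.9 to 101 FPKM in AAV-ChREBP, and at most 0.02 FPKM in CON against at least 12.8 FPKM in Ch-OE cells. FPKM counts reads over the whole gene, so transcripts without the deleted exon still count. Myh7, the slow myosin, was 1757 to 2267 FPKM in SOL and at most 37.6 FPKM in GC on chow. None of 8 skeletal muscle markers was at 0 in any group, and in C2C12 cells their sum was 891 to 1052 FPKM, with Myh4 at 3.30 to 4.85 FPKM. Libraries held an estimated 16400000 to 19800000 reads on chow and 15600000 to 20200000 in the AAV experiment and a recovered 14473170 to 23460515 in the hypoxia and diet experiments, and the depth of the C2C12 libraries is unknown. The library of GC from F/F mouse 69 held 346 FPKM of 4 Schwann cell markers, against at most 85.6 FPKM in any other chow library, and the SOL library paired with it carries a second mouse number in the labels.

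The first comparison asks how the genes differ between a slow and a fast muscle. Values are listed by mouse in ascending number (57, 58, 69, 70 and 71 for F/F, and 59, 60, 61, 72 and 74 for ChMKO), so the order pairs the muscles and has no other meaning. Libraries of the same number are taken as 1 mouse, which the labels do not state. Mstn lies on chromosome 1 from 53061640 to 53068079 (GRCm38, plus strand). In GC of F/F mice Mstn was 36.5, 19.3, 23.6, 28.9 and 35.2 FPKM, and in SOL of the same mice 2.21, 0.242, 1.09, 0.623 and 0.397 FPKM. Every SOL library was far below every GC library, and the highest SOL value, in mouse 57, was still under the lowest GC value. The means were 28.7 ± 7.37 FPKM (SD, n = 5) in GC and 0.911 ± 0.792 FPKM (SD, n = 5) in SOL, 31.5-fold lower, and within a mouse GC exceeded SOL by 16.5- to 88.5-fold. In ChMKO mice Mstn was 33.2, 39.7, 28.4, 22.4 and 29.8 FPKM in GC and 0.617, 0.744, 1.11, 0.590 and 0.392 FPKM in SOL. The groups were again apart, with a mean of 30.7 ± 6.35 FPKM (SD, n = 5) in GC and 0.691 ± 0.268 FPKM (SD, n = 5) in SOL, and a ratio of GC to SOL of 25.5 to 76.1 within a mouse.

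Mss51, on chromosome 14 from 20482857 to 20496901 (GRCm38, minus strand), had the largest gap. In F/F mice it was 133, 81.2, 189, 127 and 61.7 FPKM in GC and 2.05, 1.04, 1.66, 1.11 and 1.97 FPKM in SOL. The SOL libraries lay close together, while the GC libraries spread from mouse 71 at the bottom to mouse 69 at the top. The means were 118 ± 49.6 FPKM (SD, n = 5) and 1.57 ± 0.475 FPKM (SD, n = 5), 75.6-fold lower in SOL, and GC exceeded SOL by 31.3- to 115-fold within a mouse. In ChMKO mice Mss51 was 191, 60.2, 203, 36.6 and 80.9 FPKM in GC and 1.35, 1.3, 2.42, 0.753 and 0.715 FPKM in SOL. Mice 59 and 61 were high in GC and mouse 72 low, none near the SOL libraries, and the ratio of GC to SOL was 46.4 to 142.

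Fst, on chromosome 13 from 114452262 to 114458951 (GRCm38, minus strand), went the other way. It was 1.74, 1.39, 0.535, 0.979 and 0.889 FPKM in GC and 5.78, 5.58, 3.69, 4.02 and 2.97 FPKM in SOL of F/F mice. No SOL library was as low as a GC library, and the mean was 3.98-fold higher in SOL, 4.41 ± 1.22 FPKM (SD, n = 5) against 1.11 ± 0.468 FPKM (SD, n = 5). In ChMKO mice Fst was 0.863 to 1.34 FPKM in GC and 3.00 to 4.26 FPKM in SOL, 3.17-fold higher in the mean. SOL was higher in 5 of 5 mice of each genotype.

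Smad7, on chromosome 18 from 75367365 to 75395935 (GRCm38, plus strand), was 2.00, 2.73, 1.91, 1.93 and 2.08 FPKM in GC and 3.45, 4.10, 4.28, 4.62 and 6.30 FPKM in SOL of F/F mice. The groups did not overlap, and the mean was 2.14-fold higher in SOL. In ChMKO mice it was 3.39, 1.99, 2.95, 2.80 and 3.01 FPKM in GC and 5.17, 3.19, 3.29, 4.47 and 4.46 FPKM in SOL. There the ranges overlapped, since SOL of mice 60 and 61 lay below GC of mouse 59, although SOL was the higher muscle in 5 of 5 mice.

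Acvr2b, on chromosome 9 from 119401584 to 119442148 (GRCm38, plus strand), encodes the receptor. It was 3.96, 2.53, 1.82, 2.23 and 1.76 FPKM in GC and 2.43, 1.70, 1.92, 1.96 and 0.979 FPKM in SOL of F/F mice, and 1.59 to 3.13 FPKM in GC and 1.03 to 1.92 FPKM in SOL of ChMKO mice. The ranges overlapped in both genotypes. SOL was lower in 4 of 5 F/F mice, all but mouse 69, and in 5 of 5 ChMKO mice, with means 1.37- and 1.46-fold lower.

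**Figure D1:**
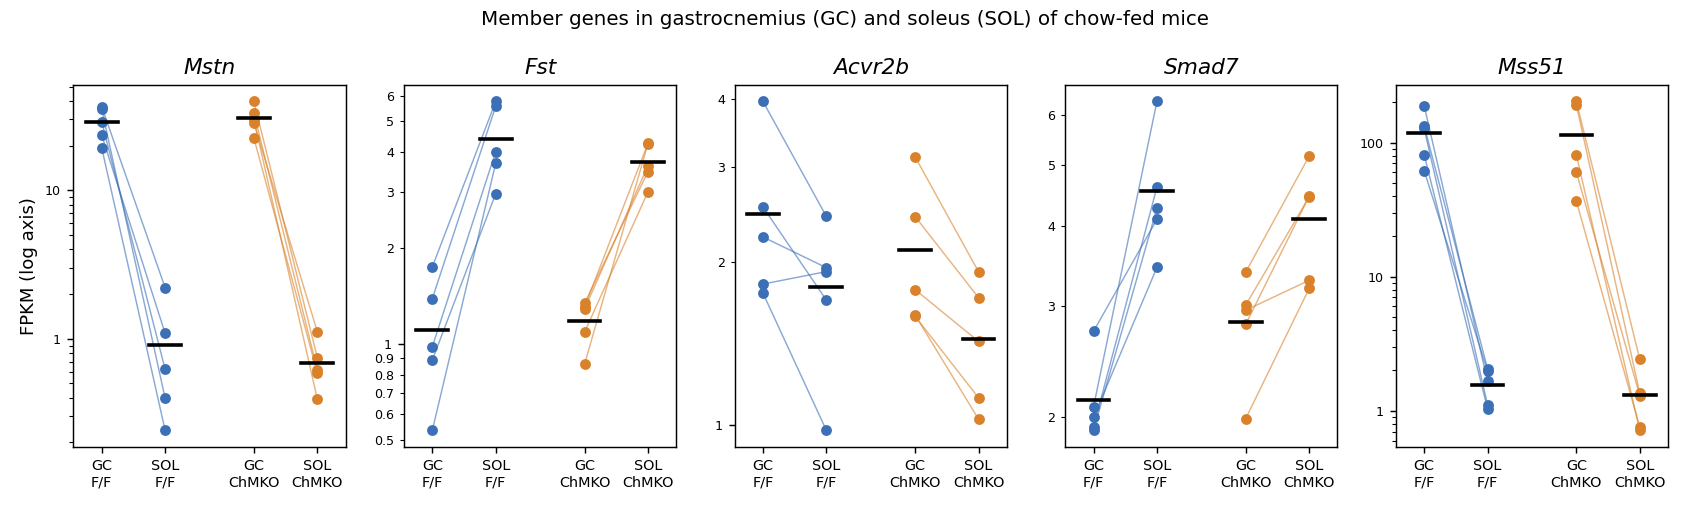
Levels of the 5 genes in gastrocnemius (GC) and soleus (SOL) of chow-fed F/F (blue) and ChMKO (orange) mice. The vertical axes are FPKM on log scales, points are libraries, lines join the muscles of the same mouse and black bars are means. Mstn and Mss51 are lower and Fst and Smad7 higher in SOL than in GC of every mouse, and Acvr2b overlaps.

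On the log2(FPKM + 1) scale used for all differences below, which understates changes near 1 FPKM, SOL minus GC in F/F mice was -5.46 for Mss51, -4.01 for Mstn, -0.29 for Acvr2b, 0.81 for Smad7 and 1.36 for Fst. In ChMKO mice the differences were -5.40, -4.22, -0.33, 0.41 and 1.12. The muscles did not overlap for 4 of the 5 genes in F/F mice, 2 lower and 2 higher, where 35.9% of 13235 genes did not (9.64% lower and 26.3% higher in SOL). In ChMKO mice they did not overlap for 3 of 5, 2 lower and 1 higher, where 43% of 13080 genes did not (12.8% lower and 30.2% higher). The median difference was -0.29 over the 5 genes and 0.18 over all genes in F/F mice, and -0.33 and 0.15 in ChMKO mice. Rescaling each library by its median ratio brought the medians over all genes to 0.04 and 0.03 and the higher share of genes past the adjusted p from 75.1% to 55.2% in F/F and from 70.7% to 53.3% in ChMKO mice. All 5 genes kept their directions under it in both genotypes. In bulk muscle fewer cells of a type and less RNA per cell cannot be told apart.

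The order of levels within a muscle also changed, read per gene length. In GC of F/F mice Mss51 had the highest mean, followed by Mstn, Acvr2b, Smad7 and Fst, and in SOL Smad7 and Fst had the highest means, with Acvr2b, Mss51 and Mstn below 2 FPKM. Between genotypes within a muscle, neighbouring means of Mstn, Mss51, Fst and Acvr2b differed by less than the larger SD. Only Smad7 in GC differed by more, at 2.83 ± 0.516 FPKM (SD, n = 5) in ChMKO and 2.13 ± 0.344 FPKM (SD, n = 5) in F/F mice.

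Within SOL, the low levels of Mstn and Mss51 were read beside Myh4, the myosin of the fastest fibers. Myh4 was 1229, 19.4, 865, 281 and 391 FPKM in SOL of F/F mice and 249, 496, 699, 61 and 66.9 FPKM in SOL of ChMKO mice. Mouse 57, with the highest Myh4, had the highest Mstn of the 10 SOL libraries, and mouse 58, with the lowest Myh4, had the lowest. Over the 10 SOL libraries, as deviations of log2(FPKM + 1) from the genotype means, Mstn and Myh4 gave Pearson's r = 0.78 and Spearman's rho = 0.84. For Mss51 and Myh4, r was 0.79 and rho 0.88. Without the 2 libraries farthest in Myh4, r was 0.79 for Mstn and 0.80 for Mss51. Myh4 was chosen after the values were seen, so these correlations are a description and carry no test. The share of fast fibers in the piece of SOL taken was not measured.

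In GC on chow the genes were read against slow fibers. A slow-fiber score, the mean log2(FPKM + 1) of Myh7, Myh7b, Tnnc1, Tnni1 and Tnnt1, gave r = -0.51 with Mstn over the 10 GC libraries on chow (permutation p = 0.130, adjusted p = 0.237, rho = -0.37, permutation p = 0.295, adjusted p = 0.491) and r = -0.59 with Mss51 (permutation p = 0.0767, adjusted p = 0.171, rho = -0.64, permutation p = 0.0550, adjusted p = 0.122), again on deviations from group means and with p-values adjusted over the 20 relations computed in all. Without the 2 libraries farthest in the score, r was -0.16 for Mstn and -0.45 for Mss51. The 20 include the 2 with Myh4 in SOL, chosen after the values were seen. Their low p-values can lower the adjusted p of other relations. None of the 5 genes passed the adjustment against this score in chow GC. Mss51 and Mstn gave r = 0.10 with each other there (permutation p = 0.773, adjusted p = 0.773, rho = 0.0061, permutation p = 1, adjusted p = 1). Without the 2 libraries farthest in Mstn, r was -0.62, so the sign rests on single libraries.

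The rest of the pathway was read from a list of 43 further genes, of which 36 were tested. In SOL of F/F mice 12 were higher and 6 lower by limma with the Benjamini-Hochberg adjusted p, and in ChMKO mice 16 were higher and 6 lower, against 50.4% and 57.9% of all genes tested, a share near that of all genes. This fit did not pair the muscles of a mouse. With the mouse number as a block, 6467 of 13235 and 7266 of 13080 genes passed, and the pathway genes were not counted under it. After rescaling the splits were 11 higher and 12 lower in F/F and 12 higher and 8 lower in ChMKO mice, so the balance between directions depends on the scaling. Gdf11, Acvr1b, Ccn2, Id1 and Id3 in both genotypes, Acvr2a in F/F and Smad3 in ChMKO mice kept their direction and their call under it. Gdf11, the ligand nearest to myostatin, fell from 3.55 to 0.515 FPKM in F/F mice (log2 difference -1.58, SE 0.14, adjusted p = 1.28e-05) and from 5.06 to 0.425 FPKM in ChMKO mice (-2.06, SE 0.19, adjusted p = 3.40e-06). Acvr1b, a type I receptor for activins and myostatin, fell from 11.5 to 3.37 FPKM in F/F mice (-1.54, SE 0.15, adjusted p = 2.13e-05) and from 14.5 to 3.98 FPKM in ChMKO mice (-1.64, SE 0.15, adjusted p = 3.61e-06). Acvr2a, the other activin type II receptor, fell by 0.49 on the log2 scale in F/F mice (adjusted p = 0.00570) and by 0.34 in ChMKO mice (adjusted p = 0.0104). Smad3 fell by 0.49 in F/F mice (adjusted p = 0.0109) and by 0.69 in ChMKO mice (adjusted p = 0.00269). Of 5 receptors tested, 3 fell and 0 rose in F/F mice, and 2 fell and 1 rose in ChMKO mice. Of all genes tested, 1660 of 13235 in F/F and 2216 of 13080 in ChMKO mice were called as lower.

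Some genes that respond to the SMADs were higher in SOL. Of 4 genes listed as SMAD2/3-responsive, 3 rose in F/F and 2 in ChMKO mice, where 37.9% and 41% of all genes tested were called as higher. Ccn2, a matricellular growth factor, rose from 13.5 to 44.2 FPKM in F/F mice (1.63, SE 0.27, adjusted p = 6.23e-04) and from 21.8 to 50.5 FPKM in ChMKO mice (1.28, SE 0.25, adjusted p = 0.00106). Of 9 genes of the BMP arm, 4 rose in F/F and 7 in ChMKO mice and 0 fell, against 4 and 5 that rose and 2 and 0 that fell after rescaling. Id1 and Id3, BMP targets that inhibit bHLH factors, rose by 1.36 (adjusted p = 8.17e-04) and 1.43 (adjusted p = 1.51e-04) in F/F mice and by 1.02 and 1.01 (adjusted p = 5.71e-05 and 5.75e-05) in ChMKO mice. All 4 endothelial markers were also higher in SOL in both genotypes, with sums of 95.5 to 153 FPKM in SOL against 29.3 to 65.2 FPKM in GC of F/F mice and 76.5 to 98.3 against 35.5 to 52.6 FPKM in ChMKO mice, and none was at 0. All 5 red blood cell markers were higher as well, at 165 to 354 FPKM in SOL against 61.9 to 123 FPKM in GC of F/F mice. Of the other cell types, 1 of 3 tendon markers rose in each genotype, 1 of 4 adipocyte markers rose in F/F and 2 of 4 in ChMKO mice (0 and 0 after rescaling), and 0 of 4 Schwann cell markers rose in F/F and 3 of 4 in ChMKO mice (0 and 2 after rescaling). The part of these cells in the levels of Smad7, Fst, Ccn2, Id1 and Id3 was not tested.

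Which genes varied with each of the 5 beyond the groups was read from deviations from group means in the 20 chow and the 24 hypoxia and diet libraries, over 8429 genes averaging 1 FPKM or more in both. Likeness is the smaller of the 2 Pearson correlations and carries no test. Mstn was most like Phkb (r = 0.86 and 0.83), which encodes a subunit of phosphorylase kinase, Ppp3cb (0.81 and 0.84), a catalytic subunit of calcineurin, and Amd1 (0.88 and 0.79), an enzyme of polyamine synthesis. Mss51 was most like Odf3l2 (0.72 and 0.70), Slc7a6 (0.73 and 0.67), an amino acid transporter, and Mybpc1 (0.63 and 0.67), the slow-type myosin-binding protein C. Smad7 was most like Id3 (0.82 and 0.91), Id1 (0.80 and 0.94) and Myo9b (0.79 and 0.84). Fst was most like Pdgfa (0.61 and 0.61), Dcn (0.60 and 0.70) and Srpx (0.66 and 0.60). Acvr2b was most like Naa30 (0.63 and 0.64), Cep78 (0.61 and 0.75) and Asb4 (0.67 and 0.61). The libraries of a table share their depth scaling, and the correlations are a description.

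The second comparison asks whether loss of ChREBP in fibers changed these genes. By limma none of the 5 passed the adjusted p in any of 5 tests of ChMKO against F/F. The genes past it were 0.0236% of those tested in GC on chow, 0.0225% in SOL, 0.00922% in Norm, 0.00941% in Hypo and 0.019% on HFrD. Before adjustment, p lay under 0.05 for 1 of the 5 in GC on chow (4.63% of all genes), 0 in SOL (9.74%), 0 in Norm (11.1%), 1 in Hypo (5.27%) and 1 on HFrD (7.36%). The genotypes overlapped for each of the 5 genes in all these tests, while 0.857%, 2.05%, 4.96%, 2.03% and 4.47% of all genes did not. Limma-voom on recovered reads called 0 of 5 in Norm, Hypo and on HFrD as well. None of the 35 or 36 further pathway genes tested passed in any of them.

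Smad7 had the lowest unadjusted p of the 5 genes in GC on chow, in Hypo and in Norm. In GC on chow its values, listed above, were higher in ChMKO in 4 of 5 libraries than in any F/F library, with mouse 60 among the F/F values. The difference was 0.29 (SE 0.11, limma unadjusted p = 0.0239, adjusted p = 1.00). In Hypo Smad7 was 1.87, 1.90, 1.29 and 1.19 FPKM in F/F and 1.94, 1.88, 2.64 and 2.26 FPKM in ChMKO mice. The ranges met at the lowest ChMKO and the highest F/F library, and the difference was 0.32 (SE 0.13, limma unadjusted p = 0.0375, adjusted p = 0.532). In Norm it was 0.23 (SE 0.20, limma unadjusted p = 0.283), on HFrD 0.01 (SE 0.09) and in SOL -0.11 (SE 0.14). The genotype difference in SOL was lower than that in GC by 0.40 (interaction, SE 0.18, limma unadjusted p = 0.0393, adjusted p = 0.810), which was not called. The interaction was called for 0 of the 5 genes (0.00759% of all genes).

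Mstn differed by 0.11 in GC on chow (SE 0.18), -0.10 in SOL (SE 0.23), -0.20 in Norm (SE 0.28) and -0.34 in Hypo (SE 0.29). On HFrD it was 52.7, 70.7, 72.7 and 48.0 FPKM in F/F and 65.6, 74.8, 88.1 and 83.6 FPKM in ChMKO mice. The ranges overlapped, with a pair of F/F libraries inside the ChMKO range, and the difference was 0.36 (SE 0.14, limma unadjusted p = 0.0298, adjusted p = 0.642). Mss51 differed by -0.24 in GC on chow (SE 0.47), -0.18 in SOL (SE 0.19), 0.28 in Norm (SE 0.47), -1.39 in Hypo (SE 0.71) and 0.02 on HFrD (SE 0.24), and had the largest standard errors of the 5 genes in GC. Fst differed by -0.17 to 0.17 and Acvr2b by -0.23 to 0.10 over the same 5 tests, with limma adjusted p of at least 0.691 for Fst and 0.666 for Acvr2b.

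The third comparison asks how 2 weeks of hypoxia changed GC. In F/F mice Mss51 was 159, 31.8, 80.1 and 72.8 FPKM in Norm and 25.1, 71.9, 50.6 and 145 FPKM in Hypo, listed by mouse number. The ranges covered each other nearly in full, and the difference was -0.28 (SE 0.58, limma adjusted p = 1.00). In ChMKO mice Mss51 was 123, 91.5, 123 and 47.1 FPKM in Norm and 5.40, 37.9, 17.5 and 64.8 FPKM in Hypo. The lowest of the 24 libraries, with 172 reads on Mss51, is the first listed in Hypo, and the last listed was above the lowest Norm library, so the groups overlapped. The mean was 96.3 ± 36.0 FPKM (SD, n = 4) in Norm and 31.4 ± 26.0 FPKM (SD, n = 4) in Hypo, a difference of -1.96 (SE 0.61, limma unadjusted p = 0.00926), which met the study's criterion of an absolute log2 fold change of 1 or more with p under 0.05 before adjustment, as 1% of 10676 genes did, but not the adjusted p (0.170). Without the lowest library the mean in Hypo was 40.1 FPKM and the difference -1.33 (SE 0.44, limma adjusted p = 0.274). The difference was not shown to differ from that in F/F mice, since the interaction of genotype and hypoxia was -1.68 for Mss51 (SE 0.94, limma unadjusted p = 0.0959, adjusted p = 1.00). In Hypo itself ChMKO was below F/F by 1.39 on the log2 scale (SE 0.71, limma unadjusted p = 0.0776, adjusted p = 0.532), and by 0.77 without the lowest Hypo ChMKO library. Leaving out each library in turn gave differences from -1.89 to -0.77.

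Slow-fiber genes were read in the same libraries. Their summed level, listed in the same order, was 12.4, 89.6, 6.31 and 125 FPKM in Norm and 178, 70.1, 337 and 565 FPKM in Hypo of ChMKO mice, and 15.8, 123, 39.7 and 29.9 FPKM in Norm and 517, 92.3, 191 and 172 FPKM in Hypo of F/F mice. The ranges overlapped by 1 Hypo library in each genotype, and no slow-fiber gene passed the adjusted p in either genotype. The Hypo ChMKO library with the highest Mss51 also had the highest slow-fiber sum of its group, and the part of fiber type in Mss51 was not tested within it. Over all 24 libraries the score and Mss51 gave r = -0.32 as deviations from group means (permutation p = 0.130, adjusted p = 0.237, rho = -0.30, permutation p = 0.154, adjusted p = 0.308). For Mstn r was -0.43 (permutation p = 0.0366, adjusted p = 0.0915, rho = -0.45, permutation p = 0.0281, adjusted p = 0.0803) and for Fst -0.55 (permutation p = 0.00606, adjusted p = 0.0332, rho = -0.49, permutation p = 0.0151, adjusted p = 0.0604). Without the 2 libraries farthest in the score, r was -0.24 for Mss51, -0.39 for Mstn and -0.52 for Fst. Mss51 and Mstn gave r = 0.20 with each other over the 24 libraries (permutation p = 0.354, adjusted p = 0.581, rho = 0.29, permutation p = 0.172, adjusted p = 0.313).

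By limma 0 of 5 passed the adjusted p in F/F (0% of all genes), with 0 of 5 and 3.83% of all genes at p under 0.05 before adjustment, and 0 of 5 in ChMKO mice (0.89% of all genes), with 2 of 5 and 15.1% of all genes at p under 0.05 before adjustment. Limma-voom on recovered reads also called 0 of 5 in each. Mstn was 34.8, 36.0, 81.8 and 71.8 FPKM in Norm and 31.8, 46.4, 54.3 and 77.8 FPKM in Hypo of F/F mice, and 39.6 to 51.2 against 25.2 to 56.7 FPKM in ChMKO mice. Norm F/F mice split into a low pair and a high pair, and every comparison of Mstn with that group carries that spread. The differences of Mstn were -0.06 (SE 0.35) in F/F and -0.20 (SE 0.20) in ChMKO mice. Fst differed by -0.27 in F/F (SE 0.14, limma adjusted p = 1.00) and by -0.28 in ChMKO mice (SE 0.12, limma adjusted p = 0.318). Acvr2b and Smad7 differed by -0.13 to 0.02. Of 35 further pathway genes tested, 0 rose and 1 fell in ChMKO mice, against 2 that fell after rescaling. Smad3, which carries the myostatin signal to the nucleus, fell from 36.1 to 18.2 FPKM in ChMKO mice (-0.96, SE 0.15, limma adjusted p = 0.0268), and in F/F mice none passed.

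The fourth comparison asks how 3 months on a high-fructose diet changed GC, against the same Norm libraries. In ChMKO mice Mstn was 51.2, 45.4, 45.5 and 39.6 FPKM in Norm and 65.6, 74.8, 88.1 and 83.6 FPKM on HFrD. All HFrD libraries were above all Norm libraries. The mean rose from 45.4 ± 4.77 FPKM (SD, n = 4) to 78.0 ± 9.95 FPKM (SD, n = 4), 1.72-fold, a difference of 0.76 (SE 0.10, limma adjusted p = 2.01e-04). It was 0.97 after rescaling by the median ratio (adjusted p = 6.01e-05). In F/F mice Mstn was 52.7, 70.7, 72.7 and 48.0 FPKM on HFrD, inside the wide Norm range of 34.8 to 81.8 FPKM, and differed by 0.20 (SE 0.30, limma adjusted p = 0.650). The interaction of genotype and diet for Mstn was 0.56 (SE 0.34, limma unadjusted p = 0.113, adjusted p = 0.466), so the rise was not shown to differ between genotypes.

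The rise of Mstn stands against a wide background. It is 1 of 5 genes called in ChMKO mice, where 64% of 10733 genes passed the adjusted p and 19.4% passed it as higher, and 57.2% did not overlap. In F/F mice 0 of 5 passed the adjusted p and 0% of 10707 genes did, while 1 of 5 and 23.6% of all genes had p under 0.05 before adjustment, and limma-voom also called 0 of 5. The interaction was called for 0 of 5 genes and 0% of all genes, as was that of genotype and hypoxia. The median over all genes was -0.17 in ChMKO and -0.10 in F/F mice, and rescaling brought the former to -0.02, with 53.5% in place of 30.3% of the called genes higher in ChMKO mice. Markers of several cell types other than fibers were lower on the diet. The fibroblast sum was 41.0 to 52.9 FPKM on HFrD against 143 to 395 FPKM in Norm of ChMKO mice and 39.1 to 48.5 against 77.7 to 327 FPKM in F/F mice, none of its 5 genes at 0. In ChMKO mice 4 of 5 fibroblast, 3 of 3 tendon, 4 of 4 endothelial, 3 of 3 tested leukocyte and 5 of 5 red blood cell markers fell (4, 3, 3, 1 and 3 after rescaling), while 1 of 4 adipocyte and 1 of 4 Schwann cell markers rose and 0 fell, with and without rescaling. No marker of these 7 cell types passed in F/F mice. The slow-fiber sum was 131 to 170 FPKM on HFrD against 15.8 to 123 FPKM in Norm of F/F mice. In ChMKO mice it was 52.4 to 226 against 6.31 to 125 FPKM, with overlap. Of 4 slow-fiber genes tested, 1 was called as higher in ChMKO and 0 in F/F mice. In ChMKO mice the skeletal muscle sum was 27668 to 29526 FPKM on HFrD against 33934 to 39515 FPKM in Norm. In F/F mice it was 27074 to 29190 FPKM on HFrD against 29312 to 34890 FPKM in Norm, also without overlap. The part of these shifts, and of age, in the level of Mstn was not tested.

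Fst showed the opposite sign on the diet. It was 2.29, 1.71, 1.58 and 1.35 FPKM in Norm and 0.926, 0.938, 0.851 and 0.892 FPKM on HFrD of F/F mice. The HFrD libraries were tightly grouped below all Norm libraries, and the difference was -0.51 (SE 0.10, limma unadjusted p = 7.75e-04, adjusted p = 0.145), which did not pass, where 13.3% of genes were lower without overlap. In ChMKO mice Fst was 0.632, 1.67, 1.01 and 1.42 FPKM on HFrD against 1.09 to 2.02 FPKM in Norm, with overlap and a difference of -0.26 (SE 0.17, limma adjusted p = 0.195). The fibroblast sums given above were lower on HFrD in both genotypes, with 0 of 5 of the genes called in F/F mice, and their part in Fst was not tested.

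Mss51 was at its highest on the diet, 132, 183, 135 and 89.2 FPKM in F/F and 145, 116, 192 and 95.8 FPKM in ChMKO mice. These ranges overlapped with Norm, and the differences were 0.82 in F/F (SE 0.43, limma adjusted p = 0.250) and 0.55 in ChMKO mice (SE 0.31, limma adjusted p = 0.148). Ordered by mean over the 6 groups, Mss51 ran from HFrD ChMKO and HFrD F/F through Norm ChMKO, Norm F/F and Hypo F/F to Hypo ChMKO, and HFrD F/F and Norm ChMKO were the neighbours that differed by more than the larger SD. For Mstn HFrD ChMKO was above HFrD F/F by more than the larger SD, and Norm F/F, Hypo F/F, Norm ChMKO and Hypo ChMKO followed with smaller steps. Smad7 differed by -0.34 (SE 0.14, limma adjusted p = 0.0580) and Acvr2b by -0.24 (SE 0.11, limma adjusted p = 0.0669) in ChMKO mice, both just outside the threshold. Leaving out 1 library, the second listed of Norm, brought Smad7 and Acvr2b past it (adjusted p = 0.00619 and 0.0169), leaving out the first of HFrD brought Smad7 past it (0.0408) and leaving out the last of HFrD brought Acvr2b past it (0.0464). Of 35 further pathway genes, 5 rose and 19 fell in ChMKO mice, against 64% of all genes, but 9 rose and 7 fell after rescaling, so the excess of falling genes rests on the scaling. The 6 genes named next kept their direction and call under it. Acvr2a rose from 3.78 to 12.3 FPKM (1.47, SE 0.095, limma adjusted p = 2.18e-06), Bmpr2, a BMP type II receptor, from 6.04 to 14.3 FPKM (1.12, SE 0.068, adjusted p = 1.41e-06) and Bmpr1b, a BMP type I receptor, from 1.52 to 3.09 FPKM (0.69, SE 0.18, adjusted p = 0.00797). Smad3 fell from 36.1 to 16.2 FPKM (-1.12, SE 0.16, adjusted p = 3.02e-04), Cdkn1a, a cell cycle inhibitor, from 15.5 to 7.61 FPKM (-0.93, SE 0.19, adjusted p = 0.00251) and Smad6, an inhibitory SMAD, from 1.58 to 0.672 FPKM (-0.62, SE 0.067, adjusted p = 5.54e-05). None of 36 passed in F/F mice.

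**Figure D2:**
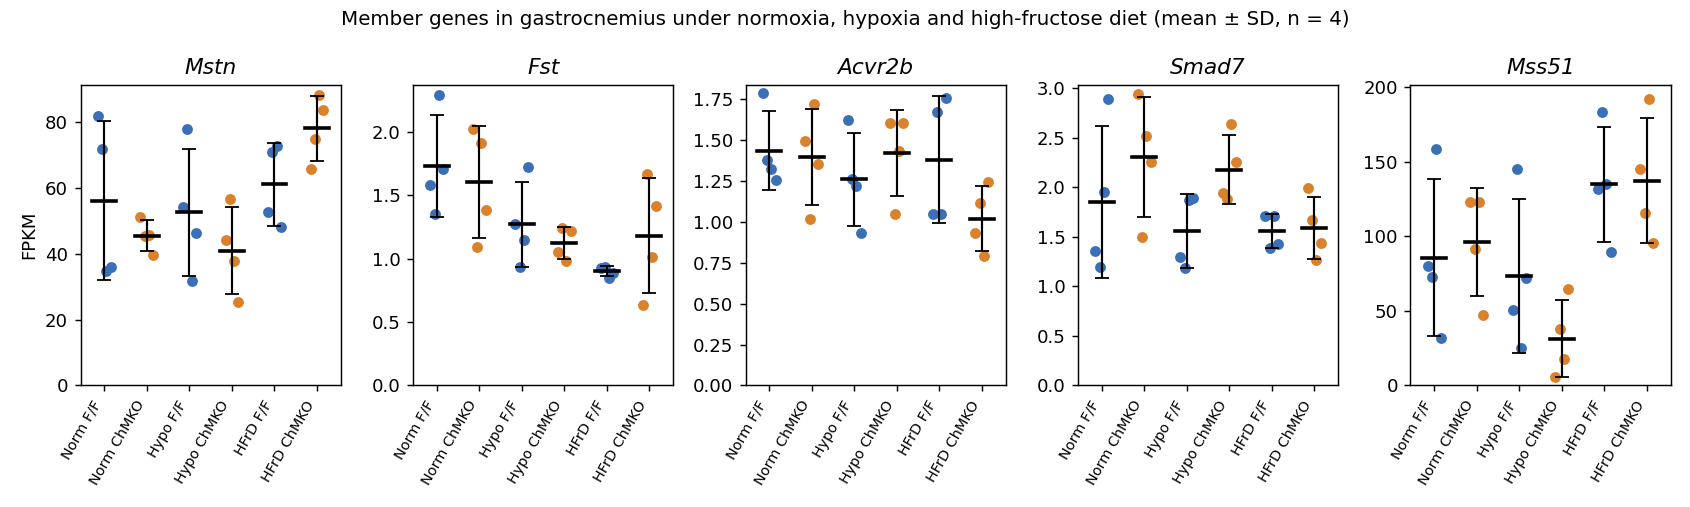
Levels of the 5 genes in GC of F/F (blue) and ChMKO (orange) mice in normoxia (Norm), hypoxia (Hypo) and on a high-fructose diet (HFrD). The vertical axes are FPKM, points are libraries, thick bars are means and error bars are 1 SD (n = 4). Mstn on HFrD in ChMKO mice lies above all Norm ChMKO libraries, and Mss51 is lowest in Hypo ChMKO.

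The fifth comparison asks what added ChREBP did in GC. Mss51 was 27.0, 38.5, 48.3, 11.2 and 15.1 FPKM in AAV-CON and 20.6, 27.5, 26.6, 8.46 and 13.5 FPKM in AAV-ChREBP, for numbers 1, 3, 4, 7 and 8. The libraries numbered 7 and 8 were low in both groups, the ranges overlapped, and AAV-ChREBP was lower in 5 of 5 pairs of the same number, at 0.549 to 0.895 of the control. The difference was -0.44 (SE 0.40, limma adjusted p = 1.00). With the number as a replicate block the SE was 0.083 and the unadjusted p 4.84e-04, and the adjusted p of 0.528 still missed the threshold. Mstn was 54.3, 52.2, 60.7, 39.3 and 48.1 FPKM in AAV-CON and 50.9, 48.2, 42.6, 39.3 and 43.5 FPKM in AAV-ChREBP, with a ratio of 0.701 to 1.00 within pairs, below 1 in 5 of 5 and nearest to it in that numbered 7. Its difference was -0.17 (SE 0.11, limma adjusted p = 1.00, and unadjusted p = 0.0311 and adjusted p = 0.853 with the replicate block). Fst, Smad7 and Acvr2b were lower in 1, 3 and 2 of 5 pairs, with differences of 0.17, -0.01 and 0.04. By limma without the block 0 of 5 genes passed, 0 of 5 had p under 0.05 before adjustment (2.89% of all genes), and 0.00906% of 11033 genes passed, which was Mlxipl alone. With the block, Mss51 and Mstn had limma p under 0.05 before adjustment, as did 641 of 11033 genes, and 0 of 5 passed. None of 36 further pathway genes passed.

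Slow-fiber content varied widely between these GC samples, from a summed level of 1.17 to 198 FPKM in AAV-CON and 6.42 to 137 FPKM in AAV-ChREBP. Over the 10 libraries Mstn was lower where the slow-fiber score was higher, as deviations from group means, with r = -0.91 (permutation p = 1.50e-04, adjusted p = 0.00300) and rho = -0.89 (permutation p = 0.00143, adjusted p = 0.0146), and r was -0.85 without the 2 libraries farthest in the score. Mss51 gave r = -0.74 (permutation p = 0.0180, adjusted p = 0.0513) and rho = -0.68 (permutation p = 0.0342, adjusted p = 0.0855), and Fst r = 0.76 (permutation p = 0.0124, adjusted p = 0.0415) and rho = 0.71 (permutation p = 0.0270, adjusted p = 0.0803). Mss51 and Mstn gave r = 0.82 (permutation p = 0.00267, adjusted p = 0.0267) and rho = 0.76 (permutation p = 0.0149, adjusted p = 0.0604). Without the 2 libraries farthest on the x axis, r was -0.67, 0.79 and 0.66 for these 3 relations. Libraries of the same number deviated together, so the 10 libraries are fewer than 10 independent samples and these p-values are too small. The adjustment also counts the 2 relations with Myh4 in SOL, chosen after the values were seen, which can lower the adjusted p here. Whether Fst passes without them was not tested. The sign for Fst was the opposite of that in the hypoxia and diet libraries given above.

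**Figure D3:**
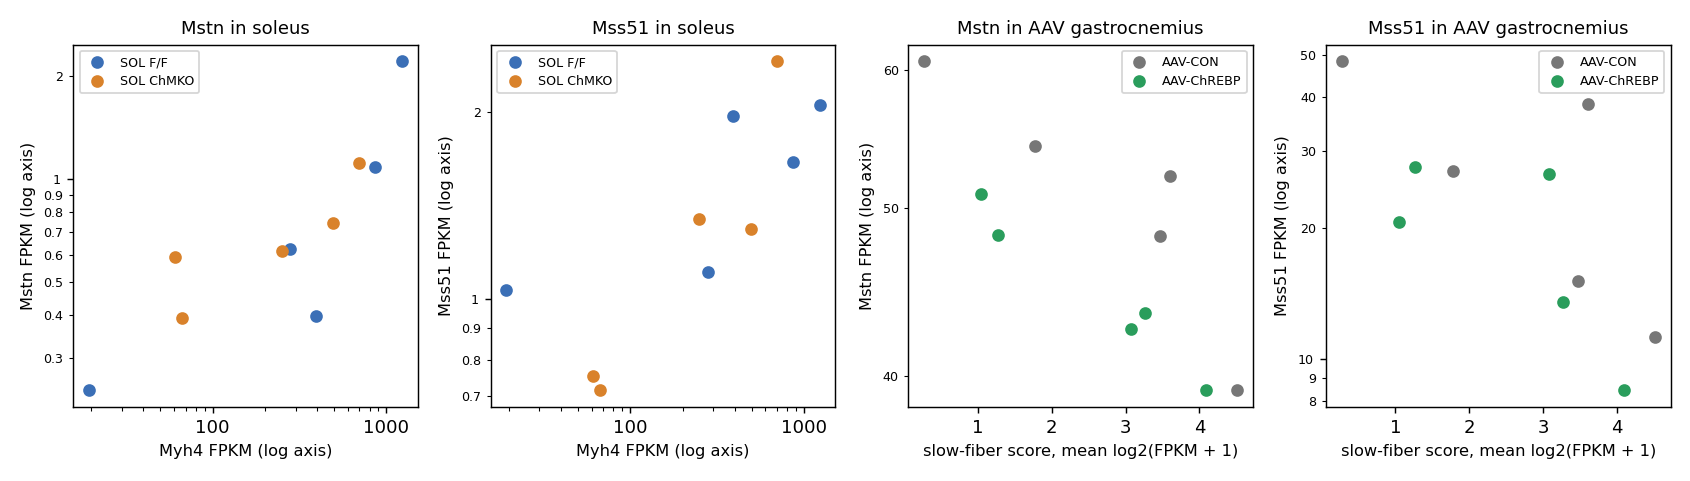
Levels of Mstn and Mss51 (FPKM, log axes) against Myh4 (FPKM, log axis) in 10 soleus libraries, and against the slow-fiber score (mean log2(FPKM + 1) of 5 genes) in 10 AAV gastrocnemius libraries. Points are libraries, coloured by group. Both genes are higher where Myh4 is higher in soleus, and Mstn is lower where the slow-fiber score is higher in AAV gastrocnemius (r = -0.91).

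In C2C12 cells the myostatin transcript was near absent. Mstn was listed at 0.05, 0, 0.02 and 0.02 FPKM in CON and 0, 0.02, 0.02 and 0 FPKM in Ch-OE libraries, in a table rounded to 2 decimals, so it did not reach the mean of 0.5 FPKM needed for a test and 4 of the 5 genes were tested. Smad7 was 3.61, 3.53, 4.13 and 3.96 FPKM in CON and 4.72, 4.76, 5.16 and 4.72 FPKM in Ch-OE. All Ch-OE libraries were above all CON libraries, and the mean rose 1.27-fold, by 0.28 (SE 0.055, limma adjusted p = 0.00288). Mss51 was 1.67, 2.13, 2.02 and 2.17 FPKM in CON and 2.29, 3.04, 2.44 and 3.04 FPKM in Ch-OE, without overlap, and rose 1.35-fold, by 0.30 (SE 0.085, limma adjusted p = 0.0204). The call of Mss51 was lost without CON library 1 (adjusted p = 0.0543), Ch-OE library 2 (0.0609) or Ch-OE library 4 (0.0608). Fst, at 2.22 to 2.67 FPKM in CON and 1.95 to 2.42 FPKM in Ch-OE, differed by -0.12 (SE 0.069, limma adjusted p = 0.202), and Acvr2b, at 1.56 to 1.78 and 1.42 to 1.59 FPKM, by -0.11 (SE 0.057, limma adjusted p = 0.184). The 2 genes called, both higher, are read against 30.5% of 11972 genes called and 16.3% called as higher, and 31.3% did not overlap.

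Of 38 further pathway genes tested in C2C12 cells, 10 rose and 12 fell, against 30.5% of all genes. Of the 4 SMAD2/3-responsive genes 3 rose and 1 fell. Inhba, which encodes an activin subunit, rose from 8.41 to 25.9 FPKM (1.52, SE 0.041, limma adjusted p = 1.3e-09) and Ccn2 to 36.8 FPKM (1.44, SE 0.074, adjusted p = 1.82e-07). Tgfbr3, the betaglycan co-receptor, fell from 21.9 to 12.6 FPKM (-0.75, SE 0.043, adjusted p = 4.10e-07), Tgfbr1, a type I receptor, from 15.9 to 11.7 FPKM (-0.41, SE 0.037, adjusted p = 1.20e-05) and Smad3 from 32.6 to 25.1 FPKM (-0.37, SE 0.035, adjusted p = 2.12e-05). Of 5 receptors tested 4 fell and 0 rose, where 1690 of 11972 genes were called as lower. Markers of muscle moved too, not all one way. Their sum was 1010 to 1052 FPKM in Ch-OE against 891 to 938 FPKM in CON, with 4 of 7 tested genes higher and 2 lower, Myh4 among the latter at 3.61 against 4.73 FPKM. Of the slow-fiber genes 4 of 4 tested rose, of the fast-fiber genes 3 of 5 rose and 2 fell, and of the fibroblast markers 4 of 5 fell. The part of these shifts in Mss51 and Smad7 was not tested. The Ch-OE and CON lines differ in their transduction, and line and ChREBP cannot be told apart.

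**Figure D4:**
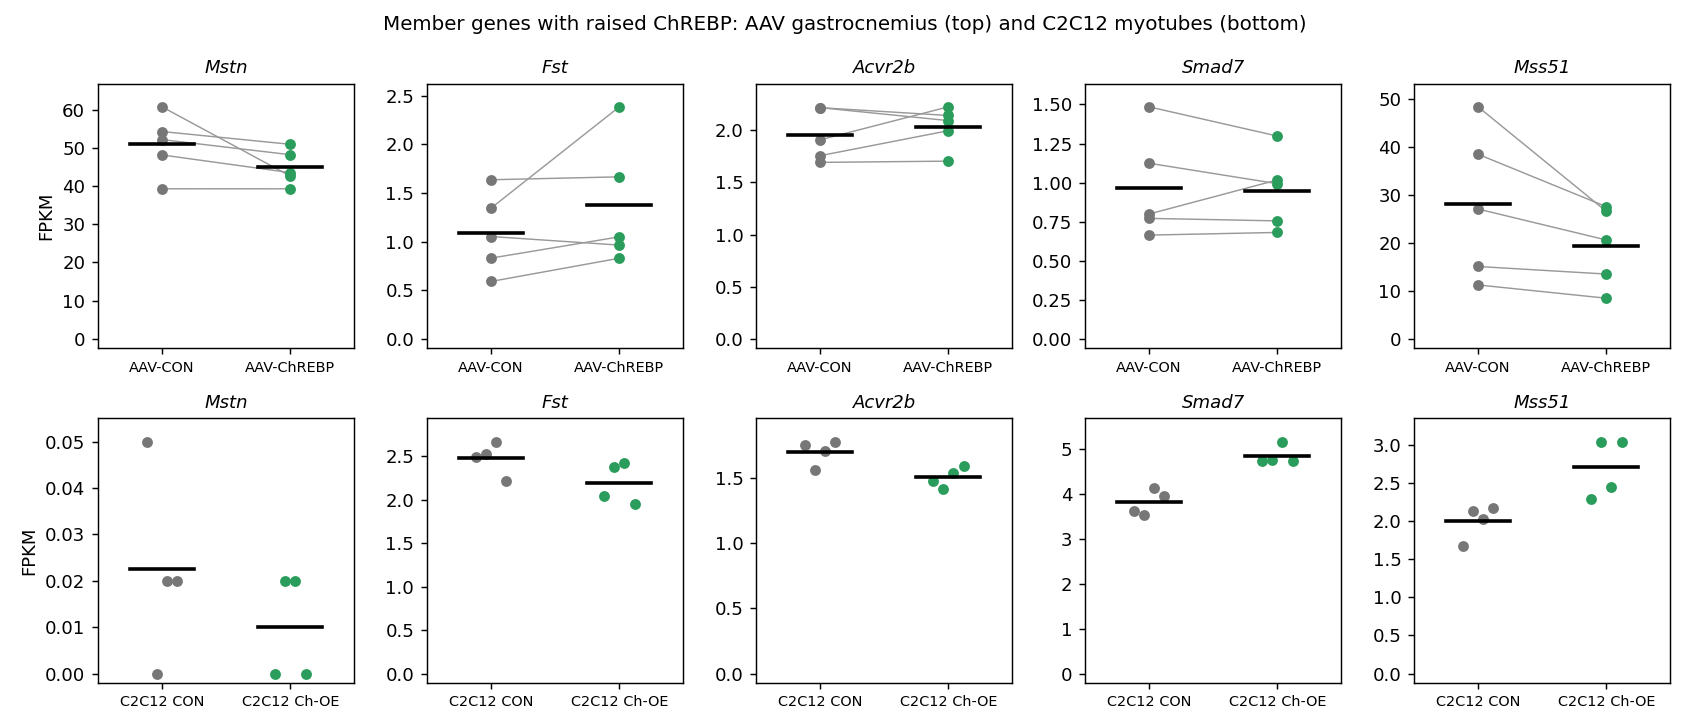
Levels of the 5 genes in AAV-injected GC (top, n = 5 per group) and C2C12 cells (bottom, n = 4 per group). The vertical axes are FPKM, points are libraries, black bars are means, and grey lines join AAV libraries of the same number. Mss51 is lower with AAV-ChREBP in each pair, and Smad7 and Mss51 are higher in Ch-OE than in CON cells without overlap.

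Across the 11 comparisons other than that of the muscles, the adjusted p was passed by Mstn on HFrD in ChMKO mice and by Smad7 and Mss51 in C2C12 cells. Of all genes tested, 64% passed in the former comparison and 30.5% in the latter, and at most 0.89% in any of the others. Acvr2b and Fst passed in none of them, with absolute differences of at most 0.24 for Acvr2b and 0.51 for Fst.

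**Figure D5:**
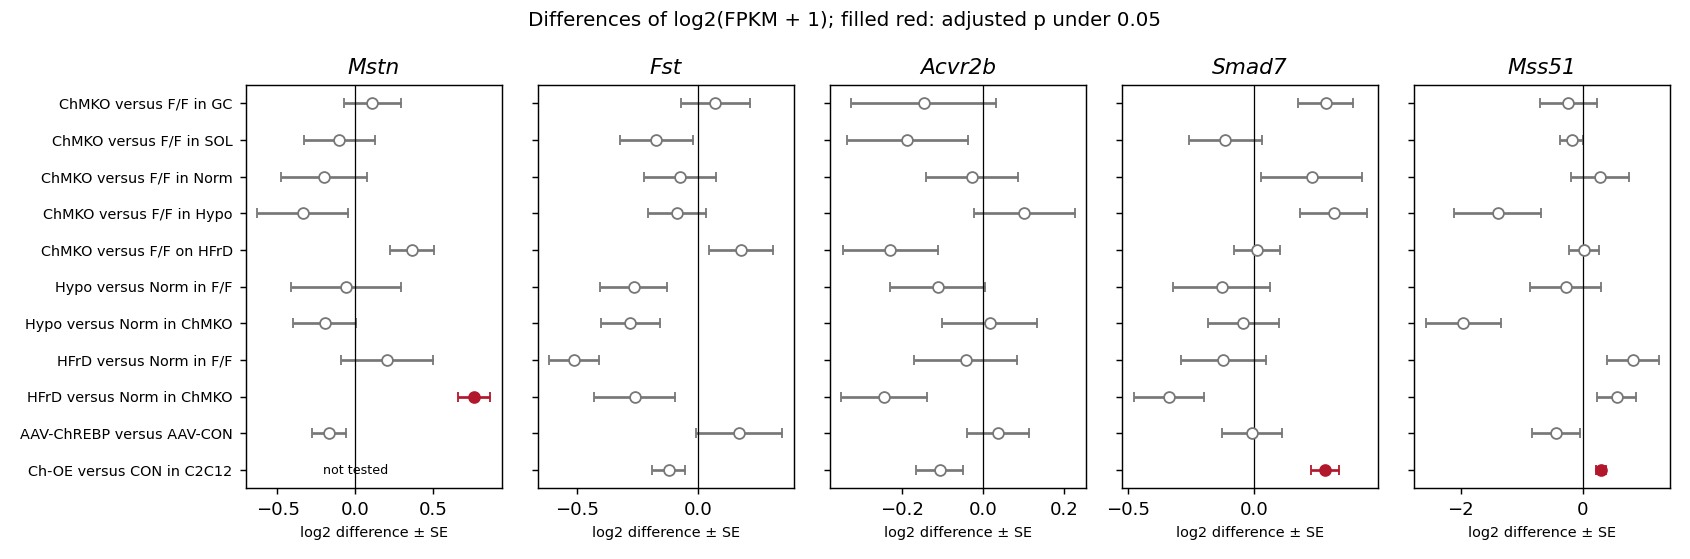
Differences of log2(FPKM + 1) with their standard errors for the 5 genes in 11 comparisons, named as upper group versus lower group. Each panel has its own horizontal axis. Filled red points passed the limma adjusted p of 0.05, which are Mstn on HFrD in ChMKO mice and Smad7 and Mss51 in C2C12 cells, and open grey points did not.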

How the data were processed

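RNA-seq of mouse GC and SOL and of C2C12 cells was used, 62 libraries in 14 groups and 4 tables. The authors deposited FPKM values, which they made from reads trimmed with fastp 0.18.0 and, per the study's methods, aligned with HISAT2. The submitters' processing notes also list StringTie 1.3.1, Bowtie2 2.2.8 and RSEM, with no role given. The chow table gives GRCm38 positions, the hypoxia and diet table GRCm39 positions and gene lengths, and the headers for AAV and C2C12 carry no unit, which was taken as FPKM from the values. The tables were normalized separately, so levels are compared only within a table. FPKM depends on the rest of each library, so a shift in abundant genes moves all others.

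From these values, log2(FPKM + 1) was compared with limma 3.58.1 in R 4.3.3 (lmFit and eBayes with trend, two-sided) for genes averaging 0.5 FPKM or more over the libraries compared, with Benjamini-Hochberg adjustment over all genes tested and a threshold of 0.05. The study itself used DESeq2 on counts, which were not used here, so its test was replaced by one for normalized values. The 13 comparisons used only the groups named, and 3 interactions used 4 groups each, with the mouse number as a random effect for genotype by muscle. Whole reads were recovered from FPKM and gene length in the hypoxia and diet table and served an added limma-voom fit. Correlations used 100000 permutations. Scripts were tested on simulated data.

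The members and gene lists were chosen with earlier results of these data known. Named were the 5 genes in every comparison, up to 3 higher and 3 lower pathway genes with the largest difference among those called, and the 3 genes most like each member. Markers named beside a result, Mlxipl and Myh4 were outside this rule. A gene that the rule names in C2C12 cells is not reported here. Alternatives were a pseudocount of 0.1, no filter on low values, rescaling by the median ratio, replicate blocks, limma-voom and leaving out each library. Same-numbered GC and SOL libraries were taken as 1 mouse from the number alone, and their deviations from group means correlated at 0.114 to 0.322 in F/F mice, other than mouse 69 at -0.0169, and at 0.0210 to 0.0492 in ChMKO mice. AAV libraries of the same number correlated at 0.212 to 0.489 in every pair, so they were read as pairs, which the labels do not state.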

Additional observations from a re-analysis of the deposited data

Results flagged for a closer look

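Among 70 sets of 1 gene in 1 group, 2 held a library far from the others by Dixon's test, a rate below the 1 in 20 that chance gives. Smad7 in GC of F/F mouse 58 was 2.73 FPKM, the highest of its group. Without it the difference between ChMKO and F/F in GC was 0.35 on the log2 scale (limma adjusted p = 0.821). Smad7 in Ch-OE replicate 3 of the C2C12 cells was 5.16 FPKM, the highest of its group. Without it the difference between Ch-OE and CON was 0.26 (limma adjusted p = 0.0107), and the call remained.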

How the results depend on the processing

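Of 863 values of the 5 genes under another setting, 809 kept direction and side of the threshold or, where no test was made, moved by less than 1 SD between replicates, and 40 changed sign, 0 of them with a called value. With a pseudocount of 0.1 the differences between muscles were larger, 1.95 for Fst, -5.12 for Mstn, -6.10 for Mss51 and 1.04 for Smad7 in F/F mice and 1.59 for Fst and -5.32 for Mstn in ChMKO mice. Differences reversed by a setting other than a left-out library were Acvr2b for HFrD in F/F mice (0.032 after rescaling) and Mss51 for genotype by muscle (-0.077 with a pseudocount of 0.1). The number of the 5 genes called was 2 with limma-voom for HFrD in ChMKO mice, where Smad7 passed (adjusted p = 0.0456). With 1 library left out (114 fits) it ranged from 1 to 3 there and from 1 to 2 in C2C12 cells.

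Uncalled differences that crossed 0 when 1 library was left out ranged as follows on the log2 scale. For genotype, they were -0.037 to 0.17 for Fst, -0.52 to 0.091 for Mss51 and -0.018 to 0.21 for Mstn in GC, and -0.24 to 0.11 for Mstn in SOL. In Norm they were -0.091 to 0.053 for Acvr2b, -0.15 to 0.026 for Fst, -0.11 to 0.65 for Mss51 and -0.39 to 0.012 for Mstn. In Hypo, Fst spanned -0.16 to 0.0041, and on HFrD Mss51 spanned -0.16 to 0.18 and Smad7 -0.059 to 0.075. For hypoxia in F/F mice they were -0.70 to 0.13 for Mss51, -0.27 to 0.15 for Mstn and -0.24 to 0.033 for Smad7, and in ChMKO mice -0.064 to 0.095 for Acvr2b, -0.37 to 0.0095 for Mstn and -0.17 to 0.049 for Smad7. For HFrD in F/F mice Acvr2b spanned -0.12 to 0.025 and Smad7 -0.23 to 0.041, and for AAV-ChREBP Smad7 spanned -0.069 to 0.080. The cause was not tested.

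With the replicate block, 0 of 5 genes were called for AAV-ChREBP and 2 in C2C12 cells, and without the replicate block 0 were called for genotype by muscle, so in these 3 fits the pairing changed no call of the 5 genes. Between muscles the 5 genes were compared by overlap, which a block cannot change. C2C12 libraries share only a number (correlations -0.0939 to 0.176). Over all genes, ChMKO against F/F in GC gave 3 called genes, and 5 with a pseudocount of 0.1 or no filter. Hypo in ChMKO gave 95, and 149 after rescaling, 6 without a filter and 10 to 129 with 1 library left out, and by the study's criterion 107, and 200 with a pseudocount of 0.1 and 212 with limma-voom. Fst, Acvr2b and Smad7 rested on 50 to 242 reads per library in the hypoxia and diet experiments. The pseudocount shrinks differences of genes near 1 FPKM.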
